A study of Mus musculus with 5 samples.

Results

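The genes Cxcl12, Kitl, Ptn, Mdk and Angpt1 were followed here, each of which encodes a secreted or surface factor known to act on blood stem and progenitor cells. They were taken by name and are 5 of the 24411 genes in the table. All 5 were found, and all 5 passed the filter on low counts in every comparison below. The libraries were single cells from the blood of wild-type C57BL/6 mouse embryos, drawn from the heart and sorted to lack CD45, CD43, CD41 and TER119, which are surface proteins of blood cells. The E9.5 group (embryonic day 9.5) had 2 batches and the E10 group (embryonic day 10) had 3, and no treatment or altered allele is recorded for either. The labels call the cells circulating and not of the blood lineage. No label ties the batches to different litters or days, so p-values between batches measure the spread of these collections, which may be technical. Each batch has 96 wells, so the number of cells in each class is not a measure of how common the class is in blood.

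As background, Cxcl12 is a chemokine that binds the receptor Cxcr4 and holds blood stem cells in their niche. Kitl, also called stem cell factor, is the ligand of the receptor tyrosine kinase Kit on blood progenitors. Angpt1 is the ligand of the receptor Tek (Tie2) on endothelial cells and blood stem cells. Ptn (pleiotrophin) and Mdk (midkine) make up a small family of heparin-binding growth factors, whose binding partners include Ptprz1, Alk, syndecans, Lrp1 and nucleolin (Ncl). In the adult bone marrow these factors come mostly from stromal and endothelial cells. Prrx1 is a homeobox gene of limb, head and body wall mesenchyme, and the Hox genes mark position along the trunk, with little Hox expression in the head.

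In the GENCODE annotation of the GRCm38 build (the mm10 genome), Cxcl12 lies at chr6:117168535-117181367 on the plus strand. Kitl lies at chr10:100015630-100100416 on the plus strand. Ptn lies at chr6:36714929-36810220, Mdk at chr2:91929805-91932297 and Angpt1 at chr15:42424723-42676977, all on the minus strand. Counts are per whole gene, and no strand setting is recorded. Angpt1 overlaps a predicted gene on the other strand, Gm17473, which has no row of its own in the table, so reads of the pair cannot be told apart. The same holds for Prrx1, used as an axis below, which overlaps 3 genes without rows. These are Gm20471 on the other strand and Gm26523 and Gm37644 on its own strand. The 250 bases before the transcription start, from RefSeq (GRCm38.p6), were held for 3 of the 5 genes. Cxcl12 and Ptn were called higher in cells high in Prrx1, a homeobox gene, and Kitl was not called. Those calls were lost when neural-like cells, described below, were left out. Mdk was called as well, but no such bases were held for it. A link between these bases and Prrx1 was not tested. The bases are written 5′ to 3′ on the strand of the gene. The windows are chr6:117168285-117168534 on the plus strand for Cxcl12, chr10:100015571-100015820 on the plus strand for Kitl and chr6:36810180-36810429 on the minus strand for Ptn, and RefSeq starts can differ from those of GENCODE. Capitals mark the TATA sequence TATAAA.
Cxcl12: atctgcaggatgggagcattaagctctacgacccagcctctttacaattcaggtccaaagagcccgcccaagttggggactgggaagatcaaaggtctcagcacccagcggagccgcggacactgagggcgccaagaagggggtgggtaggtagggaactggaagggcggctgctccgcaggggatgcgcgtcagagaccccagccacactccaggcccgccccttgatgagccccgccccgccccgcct
Kitl: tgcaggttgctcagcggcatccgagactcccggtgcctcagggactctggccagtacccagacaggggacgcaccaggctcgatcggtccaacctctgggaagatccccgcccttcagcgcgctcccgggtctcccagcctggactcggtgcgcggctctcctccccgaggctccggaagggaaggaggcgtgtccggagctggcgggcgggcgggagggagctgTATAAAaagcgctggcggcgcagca
Ptn: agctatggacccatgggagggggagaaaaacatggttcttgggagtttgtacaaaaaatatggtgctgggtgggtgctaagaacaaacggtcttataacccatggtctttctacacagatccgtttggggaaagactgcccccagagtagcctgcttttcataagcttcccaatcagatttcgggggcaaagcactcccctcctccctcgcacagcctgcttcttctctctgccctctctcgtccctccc
The letters TAATTA, the core of many homeobox binding motifs, occurred in none of these 3 windows on either strand, and in 4.84% of the 32851 mouse promoter windows of the same length. The letters TATAAA occurred on either strand in Kitl alone of the 3, 25 bases before the RefSeq start, and in 12.4% of all windows. The window of Kitl ends past the GENCODE start given above, so these letters lie inside the gene as GENCODE places it. The window of Cxcl12 held 64.4% G and C, that of Kitl 69.2% and that of Ptn 52%. A match of letters describes a sequence and is not evidence of a bound site.

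Cells entered with 1000 genes or more and 30000 UMIs or more (unique molecular identifiers, each marking 1 captured RNA molecule), and levels are UMIs scaled to the total of the cell (CPM, counts per 1000000). A UMI marks a molecule primed at its poly(A) tail, so CPM values were not divided by gene length. The 294 cells kept held 31294 to 1407021 UMIs, with a median of 308923.5, and the 5 batches held 7545865 to 44415774 UMIs in these cells. Clustering without the factors, their receptors, Prrx1 and the Hox genes gave 11 clusters, of which 8 clusters with 234 cells were non-blood. The other 60 cells were blood by their markers (45 erythroid-like, 15 haematopoietic progenitor-like), against the sort. Ptprc, which encodes CD45, had 0 UMIs in the kept cells. Spn, which encodes CD43 and was among the markers that named the progenitor-like cluster, had a mean of 33.5 CPM there. Its median there was 27.5 CPM, and its mean in all other cells was 0.65 CPM. The 11 mesenchymal markers summed to 22.7 to 5579 CPM (median 1218) in the 192 non-blood cells outside the neural clusters, to a median of 331 CPM in the 42 neural-like cells and to a median of 77.9 CPM in erythroid-like cells. The 10 erythroid markers in the table summed to a median of 7302 CPM in those 192 cells against 188426 CPM in erythroid-like cells, with Hba-a1 at 0. E9.5 replicates 1 and 2 gave 25 and 32 non-blood cells, and E10 replicates 1, 2 and 3 gave 86, 42 and 49. E10 replicate 2 stood apart. In 40 of its 42 non-blood cells at least 3 blood markers reached 50 CPM, against 0 such cells in each other batch. The erythroid gene Alas2 had a median of 130 CPM in its non-blood cells, against 0 to 25.5 CPM elsewhere, and its blood cells had a median summed Hox level of 157 CPM, against 27.8 to 59.2 CPM elsewhere. The part of free RNA in this was not tested, and the class comparisons of the 5 factors that include this batch are also given without it. The same 96 well numbers named the columns of all 5 batches, though 65 columns of E9.5 replicate 1 and 46 of E9.5 replicate 2 held 0 UMIs. No kept cell repeated the profile of another. A check for repeated wells compared only 4 pairs among the kept cells and flagged 0 wells. At a lower limit on UMIs, where 327 cells entered, it flagged 23 wells.

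Non-blood clusters differed in which factors they held, and most clusters came largely from 1 batch. Cluster 3, with 29 cells led by the smooth muscle genes Acta2 and Tagln and the endothelial gene Cldn5 beside mesenchymal markers, had the highest mean of Cxcl12 at 499 CPM and of Angpt1 at 54.6 CPM. It was left unnamed, since its leading genes went against its mesenchymal markers, and 16 of its cells were from E9.5 replicate 1. Medians in this cluster were 0 CPM for Acta2, 9.12 CPM for Tagln and 3.85 CPM for Cldn5. The mesenchymal markers Col1a2 and Pdgfra had medians of 586 and 142 CPM. The named leading genes were thus high in a part of its cells only. Cluster 2, mesenchymal-like by 7 markers including Pdgfra and Col3a1, had the highest mean of Kitl (91.0 CPM), Ptn (607 CPM) and Mdk (3078 CPM), and 27 of its 30 cells were from E10 replicate 1. The largest cluster, cluster 0, had 52 cells led by histone genes, Epha3 and Irx3, 24 of them from E9.5 replicate 2. It held Ptn at a mean of 373 CPM and Mdk at 2262 CPM with Cxcl12 at 72.3 CPM. Its leading histone genes had medians of 0 to 58.3 CPM, and Irx3 had a median of 110 CPM. Cluster 1, led by Car12 and Col4a1 with 36 of 44 cells from E10 replicate 2, had Ptn at 261 CPM and Cxcl12 at 145 CPM. Car12 had a median of 3.06 CPM there, and Col4a1 had 243 CPM. Cluster 9, led by Pcp4 and Pax3, had Ptn at 402 CPM and Mdk at 2614 CPM.

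Neural clusters held less of most factors. Neural-like cluster 4, with 26 cells led by the neuronal genes Dbh, Nefm and Tubb3, had means of 11.9 CPM for Cxcl12, 3.2 CPM for Kitl and 31.4 CPM for Ptn. Neural-like cluster 8, with 16 cells led by the neural crest genes Sox10 and Ednrb, had Cxcl12 at 19.4 CPM but Kitl at 50.1 CPM, second only to cluster 2. The neural-like clusters thus lay apart in their Kitl means. The 22 cells led by the pluripotency gene Dppa5a, all from E10 replicate 1, held Mdk at 1662 CPM, Ptn at 164 CPM and Kitl at 42.4 CPM. Since clusters follow batches, no test was made between clusters.

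**Figure D1:**
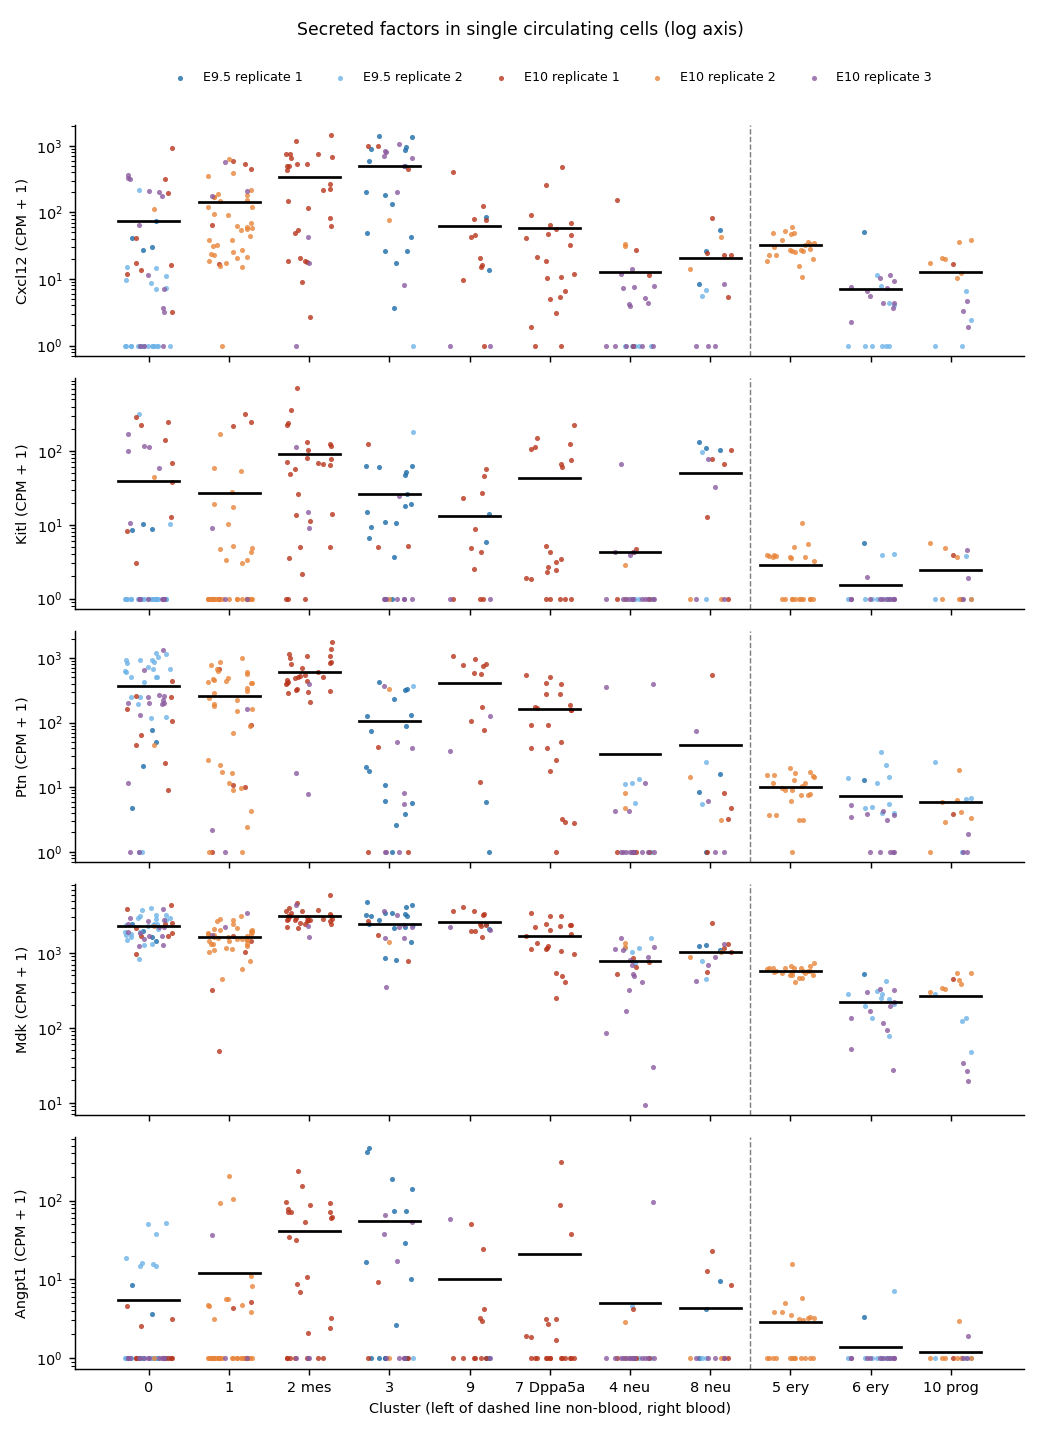
Level of each factor in single cells by cluster, as CPM + 1 on a log axis, with points coloured by batch and a black line at the cluster mean. Cluster 3 and mesenchymal-like cluster 2 (mes) hold the highest Cxcl12 means, neural clusters 4 and 8 (neu) hold little Cxcl12 and Ptn, and blood clusters (ery, prog) lie right of the dashed line.

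Mdk was the broadest of the 5. It had a UMI in all 234 non-blood cells, with a lowest value of 8.38 CPM, a median of 1903 CPM and a highest of 5979 CPM. Batch means were 2447 and 2051 CPM at E9.5 and 2227, 1620 and 1630 CPM at E10. No batch stood out, and the range over batches was narrow beside that over cells. Over classes, the mean was 2235 CPM in the 192 non-blood cells that were not neural, 882 CPM in the 42 neural-like cells, 401 CPM in erythroid-like and 263 CPM in progenitor-like cells. Batch means of the last 2 classes overlapped, at 179 to 573 CPM in erythroid-like and 25.5 to 444 CPM in progenitor-like cells. The value of 444 CPM was 1 cell of E10 replicate 1. Erythroid-like cells were the higher in each batch with both. The means were 573 against 407 CPM in E10 replicate 2 and 179 against 25.5 CPM in E10 replicate 3. This difference was not tested.

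Ptn was next, with a median of 131 CPM and a highest cell of 1791 CPM, and 35 non-blood cells had none. Its batch means were 78.5 and 450 CPM at E9.5 and 349, 260 and 121 CPM at E10, so the 2 batches of E9.5 held both the lowest and the highest value. The mean was 321 CPM in non-blood cells outside the neural clusters, 36.1 CPM in neural-like, 7.74 CPM in erythroid-like and 4.87 CPM in progenitor-like cells. Within batches, neural-like cells ranged from 6.58 to 61.8 CPM and erythroid-like from 1.62 to 11.8 CPM, so these neighbours overlapped. Progenitor-like cells, at 0.30 to 8.60 CPM over batches, overlapped erythroid-like cells as well. They were the lower in each batch with both, as in E10 replicate 2 (4.99 against 9.06 CPM), which was not tested.

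Cxcl12 was uneven. Its median over non-blood cells was 26.2 CPM and its highest cell held 1434 CPM, and the 23 cells with the most (the top 10%) held 54.5% of the summed CPM. Of those 23 cells, 13 were in cluster 3, 20 had Prrx1 at 100 CPM or more, and none was neural. Batch means were 303 and 9.09 CPM at E9.5 and 210, 96.7 and 153 CPM at E10. E9.5 replicate 2 lay far below the other batches, with 22 UMIs of Cxcl12 in 32 cells and a highest cell of 213 CPM. The class means were 192 CPM outside the neural clusters, 14.8 CPM in neural-like, 18.8 CPM in erythroid-like and 11.8 CPM in progenitor-like cells. The last 3 overlapped between batches, and erythroid-like cells stood at 30.9 CPM in E10 replicate 2, at 2.38 CPM in E9.5 replicate 2 and at 5.57 CPM in E10 replicate 3, with 1 cell at 49.7 CPM in E9.5 replicate 1.

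Kitl was in fewer cells. Its median was 2.32 CPM and its highest cell held 701 CPM, and the top 23 cells held 60.0% of the summed CPM. Batch means were 30.9 and 18.9 CPM at E9.5 and 68.5, 9.97 and 18.6 CPM at E10, with E10 replicate 1 highest. The mean was 40.2 CPM outside the neural clusters and 21.1 CPM in neural-like cells, which overlapped between batches, and 1.19 and 1.42 CPM in erythroid-like and progenitor-like cells.

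Angpt1 was the rarest. Its median was 0 CPM, 147 of 234 non-blood cells had none, and the top 23 cells held 78.1% of the summed CPM. The highest cell held 467 CPM and was in cluster 3 of E9.5 replicate 1. Batch means were 57.2 and 6.71 CPM at E9.5 and 21.0, 10.5 and 7.29 CPM at E10, with E9.5 replicate 1 highest. The class means were 21.3 CPM outside the neural clusters, 3.75 CPM in neural-like, 1.14 CPM in erythroid-like and 0.19 CPM in progenitor-like cells.

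To compare detection, each cell was thinned to 30000 UMIs, where 1 UMI is 33.3 CPM. Intervals are 95% exact (Clopper-Pearson) and cover counting error only. Mdk was then detected in 99.1% of non-blood cells (96.9% to 99.9%), Ptn in 64.1% (57.6% to 70.2%) and Cxcl12 in 55.6% (48.9% to 62.0%). Kitl was detected in 27.4% (21.7% to 33.5%) and Angpt1 in 18.4% (13.6% to 23.9%). Before thinning these shares were 100%, 85.0%, 82.1%, 55.1% and 37.2%. Blood cells, taken as the class that should lack most of these transcripts and deeper (median 383860 UMIs against 279242), gave thinned shares of 96.7% for Mdk and 38.3% for Cxcl12. Ptn was detected in 12 of the 60 blood cells, Kitl in 3 and Angpt1 in 0, the last allowing up to 5.96% of cells with a UMI at this thinned depth. At full depth 83.3% of blood cells had a UMI of Ptn, 38.3% of Kitl and 25.0% of Angpt1, with highest cells of 34.1, 9.61 and 14.7 CPM. A UMI of Mdk was thus found in nearly every cell of both classes, so its level and not its detection told them apart. For Cxcl12 the blood share came mainly from E10 replicate 2, where it was 63.3% (43.9% to 80.1%) against 69.0% (52.9% to 82.4%) in non-blood cells. In E9.5 replicate 2 it was 7.14% in blood and 9.38% in non-blood cells. In these 2 batches the share of cells with Cxcl12 did not tell the classes apart. Its level did in E10 replicate 2, where 31.0% of non-blood cells and 0% of blood cells reached 100 CPM, with highest cells of 625 and 58.7 CPM. In E10 replicate 3 the share was 7.14% (0.18% to 33.9%) in blood and 42.9% (28.8% to 57.8%) in non-blood cells.

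The first comparison asked whether blood cells lack the factors, from counts summed per batch in the 3 batches with at least 5 cells of each class. All 5 factors were lower in blood cells in 3 of 3 batches, and all 5 passed edgeR's quasi-likelihood test with batch as a block, where 16.2% of the 12865 genes tested were called lower and 32.4% were called in all. Ptn stood at 386, 297 and 116 CPM in the non-blood sums (in the order E9.5 replicate 2, then E10 replicates 2 and 3), and at 8.54, 7.83 and 1.41 CPM in the blood sums. This was a log2 difference of -4.97 (SE 0.30, edgeR adjusted p = 2.37e-09) with no overlap. Mdk stood at 1887, 1595 and 1424 CPM against 182, 524 and 146 CPM, a log2 difference of -2.08 (SE 0.30, edgeR adjusted p = 2.86e-05). Here too the groups did not overlap, although blood cells of E10 replicate 2 held the most. Cxcl12 stood at 5.44, 102 and 130 CPM against 1.85, 26.3 and 4.37 CPM, a log2 difference of -2.23 (SE 0.50, edgeR adjusted p = 0.00196). The groups overlapped for Cxcl12, since its non-blood level in E9.5 replicate 2 lay below the blood level of E10 replicate 2.

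Kitl and Angpt1 were lower in blood with fewer molecules behind the value. Kitl stood at 14.1, 7.91 and 15.5 CPM in non-blood and 0.692, 1.63 and 0.514 CPM in blood sums, without overlap. It had 344 UMIs in the non-blood sums and 27 in the blood sums, a log2 difference of -3.08 (SE 1.00, edgeR adjusted p = 0.0237). Angpt1 stood at 6.92, 10.7 and 8.71 CPM against 0.461, 0.979 and 0.129 CPM, also without overlap. It had 264 UMIs against 15, a log2 difference of -3.61 (SE 1.19, edgeR adjusted p = 0.0255). The median log2 difference of the 5 was -3.08, beside -0.20 over all genes tested. Without E10 replicate 2, the differences were -5.12 for Ptn, -2.58 for Mdk, -2.85 for Cxcl12, -3.87 for Kitl and -4.11 for Angpt1, and Angpt1 was no longer called (edgeR adjusted p = 0.0660). Angpt1 was also not called without E9.5 replicate 2 (edgeR adjusted p = 0.0875) or E10 replicate 3 (0.0824), nor Kitl without E9.5 replicate 2 (0.159) or E10 replicate 3 (0.102) or with a higher limit on UMIs per cell (0.0615), nor Cxcl12 without E10 replicate 3 (log2 difference -1.28, 0.0682). Without the block, Cxcl12 was not called (edgeR adjusted p = 0.0950). Calls over all genes fell from 4165 to 2429 without E9.5 replicate 2 and to 2342 without E10 replicate 3. With equal weight per cell the split over all genes was 878 higher and 4684 lower, against 2084 and 2081, with a median of -0.73.

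The next comparison asked how neural-like cells differ from other non-blood cells, over all 5 batches. Neural-like sums rested on few cells, 3 and 7 in E9.5 replicates 1 and 2 and 9, 4 and 19 in E10 replicates 1, 2 and 3. Mdk, Ptn and Cxcl12 were lower in neural-like cells in 5 of 5 batches and were called, where 2.44% of the 12961 genes tested were called lower, 3.09% higher and 5.53% in all. Mdk summed to a mean of 1020 ± 256 CPM (SD, n = 5) in neural-like and 2127 ± 288 CPM in the other cells, with no overlap between the groups. The log2 difference was -1.07 (SE 0.16, edgeR adjusted p = 0.000336). In the order E9.5 replicates 1 and 2, then E10 replicates 1, 2 and 3, Ptn was at 8.72, 8.92, 108, 4.85 and 70.6 CPM in neural-like cells and at 78.5, 598, 366, 337 and 151 CPM in the others. Every neural-like sum lay below the other sum of its batch, with a log2 difference of -3.34 (SE 0.60, edgeR adjusted p = 0.00188). Cxcl12 was at 37.1, 1.37, 45.8, 32.6 and 2.79 CPM in neural-like cells and at 331, 7.72, 210, 111 and 228 CPM in the others, a log2 difference of -3.07 (SE 0.51, edgeR adjusted p = 0.000843). Both overlapped between batches although each batch showed the same direction. Angpt1 was lower in 5 of 5 batches without overlap, at 3.82 ± 2.90 CPM against 19.7 ± 13.4 CPM, and did not pass (log2 difference -2.51, SE 0.84, edgeR adjusted p = 0.0998). It did pass with DESeq2 (adjusted p = 0.0124) and with equal weight per cell in limma (limma adjusted p = 0.0406). Kitl was lower in 3 of 5 batches (log2 difference -0.59, SE 0.69, edgeR adjusted p = 0.742), and in E9.5 replicate 1 it stood at 108 CPM in 3 neural-like cells against 17.6 CPM in the others. Without E10 replicate 2 the same 3 genes were called and Angpt1 and Kitl were not. Without the block, Cxcl12 was not called (edgeR adjusted p = 0.0740). Over all genes the 717 calls fell to 473, 475 and 371 without E9.5 replicate 2 and without E10 replicates 1 and 3 in turn.

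A non-blood cell held 2.65 of the 5 factors on average after thinning (SD 0.99 between cells), and 128 of 234 cells, 54.7% (48.1% to 61.2%), held 3 or more. In all, 28 cells held 1 factor, 78 held 2, 85 held 3, 35 held 4 and 8 held all 5. The 60 blood cells held 1.6 on average, and 8 of them held 3 or more, 6 of those from E10 replicate 2. By class the mean was 2.86 in non-blood cells outside the neural clusters and 1.64 in neural-like cells, the latter near that of blood. Mesenchymal-like cluster 2 had the most, with a mean of 3.77 and 28 of 30 cells at 3 or more, and cluster 3 followed with 2.97. Neural-like cluster 4 had the fewest of the non-blood clusters, with a mean of 1.38 and 18 of 26 cells with 1 factor. Without thinning the non-blood mean was 3.59, and 3.33 in blood, so at full depth the classes came close. Counting only levels of 50 CPM or more, the means were 2.33 and 0.95.

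**Figure D2:**
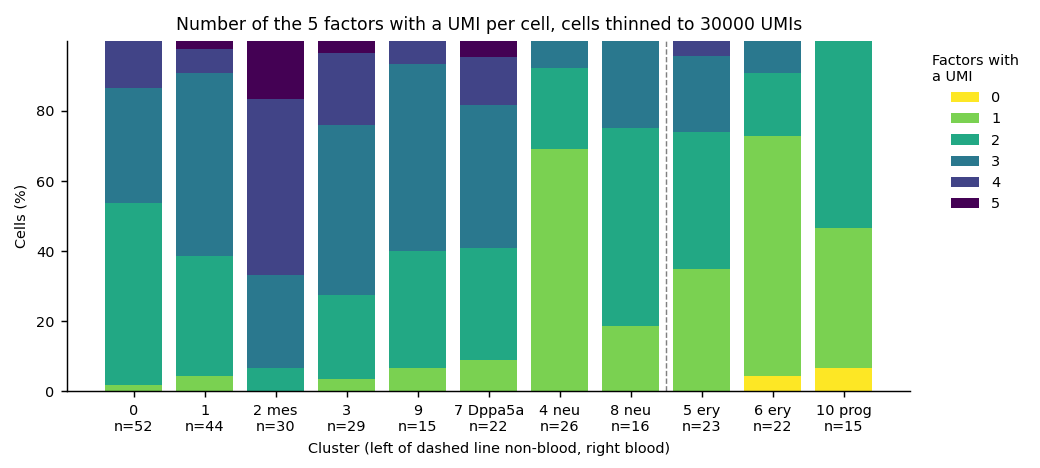
Share of cells in each cluster (%, bars from 0) that held 0 to 5 of the factors, in cells thinned to 30000 UMIs, with the number of cells under each bar. Mesenchymal-like cluster 2 had 28 of 30 cells with 3 or more, and neural-like cluster 4 had 18 of 26 cells with 1.

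The commonest set in a non-blood cell was Ptn with Mdk, in 42 cells, followed by Cxcl12, Ptn and Mdk together in 40 cells and Mdk alone in 27. Cxcl12 and Mdk without the others were in 26 cells, and Cxcl12, Kitl, Ptn and Mdk without Angpt1 in 23. Cxcl12 was therefore found both with and without Ptn. Of the 130 cells with Cxcl12, 63.1% had Ptn, and of the 104 without it, 65.4% had Ptn, so the share of Ptn was close in both. Kitl was seen in 33.1% of cells with Cxcl12 and in 20.2% of those without. Angpt1 was seen in 21.5% and 14.4%. Across the 234 cells, on the scale of log2(CPM + 10), Pearson's r was 0.0022 between Cxcl12 and Ptn, 0.38 between Ptn and Mdk, 0.34 between Cxcl12 and Kitl and 0.30 between Cxcl12 and Mdk. These describe cells that share batch and depth. Within batches r between Cxcl12 and Ptn ran from -0.22 to 0.16, and between Ptn and Mdk from 0.16 to 0.59.

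Prrx1 was next used as an axis. A level of 100 CPM split the non-blood cells into 128 Prrx1-high and 106 Prrx1-low cells, a range and not a cell type, with 36 cells between 50 and 200 CPM. All 42 neural-like cells were Prrx1-low. Cxcl12, Ptn and Mdk were higher in Prrx1-high cells in 5 of 5 batches and were called, where 0.839% of the 13236 genes tested were called higher and 1.87% in all. For Cxcl12 the Prrx1-low and Prrx1-high sums were 45.6 and 501 CPM in E9.5 replicate 1 and 2.12 and 8.33 CPM in E9.5 replicate 2. They were 109 and 251, 75.4 and 154, and 88.7 and 192 CPM in E10 replicates 1, 2 and 3. Prrx1-high cells were thus the higher in each batch, on a base that differed between batches, and the step was largest in E9.5 replicate 1. The interaction of Prrx1 level with stage, a test chosen after the data were seen, gave -1.98 for Cxcl12 (E10 minus E9.5, SE 0.43, edgeR adjusted p = 1). The log2 difference was 1.69 (SE 0.31, edgeR adjusted p = 0.00863).

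Ptn went from 17.9 to 113 and from 168 to 575 CPM in E9.5 replicates 1 and 2, and from 232 to 416, 278 to 334 and 78.6 to 173 CPM in E10 replicates 1, 2 and 3. The smallest step was in E10 replicate 2. The same interaction gave -1.46 for Ptn (SE 0.36, edgeR adjusted p = 1). Its log2 difference over all batches was 1.32 (SE 0.26, edgeR adjusted p = 0.0124). Mdk sums were 1160, 1656, 1542 and 999 CPM in Prrx1-low cells of E9.5 replicate 2 and E10 replicates 1 to 3, against 2521, 2460, 1698 and 2056 CPM in Prrx1-high cells. With E9.5 replicate 1 included, Mdk was at 1372 ± 279 CPM (SD, n = 5) in Prrx1-low and 2284 ± 401 CPM in Prrx1-high cells without overlap, a log2 difference of 0.76 (SE 0.13, edgeR adjusted p = 0.00556). Angpt1 was higher in 4 of 5 batches and did not pass (log2 difference 1.48, SE 0.69, edgeR adjusted p = 0.423). Kitl was higher in 2 of 5 batches (log2 difference -0.24, SE 0.49, edgeR adjusted p = 0.926). The median of the 5 was 1.32, beside -0.03 over all genes.

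These calls were lost when the neural-like cells were left out, in the 4 batches that then had enough cells. The log2 difference was 1.03 for Cxcl12 (edgeR adjusted p = 0.791), 0.85 for Ptn (0.585) and 0.26 for Mdk (0.821), and 13 genes in all were called against 247. In E10 replicate 3, Cxcl12 then stood at 314 CPM in 7 Prrx1-low cells and 192 CPM in Prrx1-high cells, the reverse of the other 3 batches. Ptn was not called without E9.5 replicate 2 (edgeR adjusted p = 0.106) or with the limit at 300 CPM (0.745). Without the block none of the 3 was called (edgeR adjusted p = 0.503 for Cxcl12, 0.656 for Ptn and 0.123 for Mdk). Without E10 replicate 2 all 3 were called. Over all genes, 125, 149 and 122 calls were left without E9.5 replicate 2 and without E10 replicates 1 and 3 in turn.

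The number of factors was higher with each step of Prrx1, given here as a description. Cells under 30 CPM of Prrx1 held 2.08 factors (80 cells, 38 of them neural-like), and 2.52 in the 42 that were not neural-like. Cells at 30 to 100 CPM held 2.65, at 100 to 300 CPM 2.92, at 300 to 1000 CPM 3.03 and above 1000 CPM 3.20, the last in 10 cells. Mean Cxcl12 in the same bins was 67.3, 141, 217, 229 and 198 CPM, which levelled above 100 CPM. Per cell, r with Prrx1 was 0.46 for Mdk, 0.40 for Ptn, 0.28 for Cxcl12, 0.19 for Kitl and 0.16 for Angpt1, over 234 cells. Without neural-like cells these were 0.28, 0.19, 0.10, 0.15 and 0.09.

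The number of factors showed no such order with Hox level. The sum over 39 Hox genes was 300 CPM or more in 203 non-blood cells (Hox-high) and lower in 31 (Hox-low), with 74 cells between 150 and 600 CPM. Cells under 100 CPM of Hox held 2.78 factors (9 cells), at 100 to 300 CPM 2.55 (22 cells), at 300 to 1000 CPM 2.70 (125 cells) and above that 2.58 (78 cells). Per cell, r with Hox level ran from -0.14 for Kitl to 0.095 for Mdk over all non-blood cells. Without neural-like cells it was 0.24 for Mdk and ran from -0.085 (Kitl) to 0.073 (Angpt1) for the others. The r of Mdk then ran from -0.17 in E9.5 replicate 2 to 0.65 in E10 replicate 2. In the 3 batches with at least 5 cells of each, none of the 5 factors was called by edgeR's quasi-likelihood test, where 0.087% of the 12638 genes tested were called, 0.0237% higher and 0.0633% lower. Cxcl12 was at 193 ± 87.6 CPM (SD, n = 3) in Hox-low and 216 ± 93.1 CPM in Hox-high cells, with overlap (log2 difference 0.13, SE 0.28, edgeR adjusted p = 0.9997). Mdk was higher in Hox-high cells in 2 of 3 batches (log2 difference 0.38, SE 0.17, edgeR adjusted p = 0.952). Angpt1 was higher in 3 of 3 batches, at 48.6 against 12.7, 25.0 against 13.9 and 10.5 against 0 CPM in E9.5 replicate 1 and then E10 replicates 1 and 3, and did not pass (log2 difference 2.17, SE 0.99, edgeR adjusted p = 0.952). Kitl and Ptn had log2 differences of -0.06 (SE 0.57) and -0.27 (SE 0.36). Each batch had 7 to 11 Hox-low cells.

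**Figure D3:**
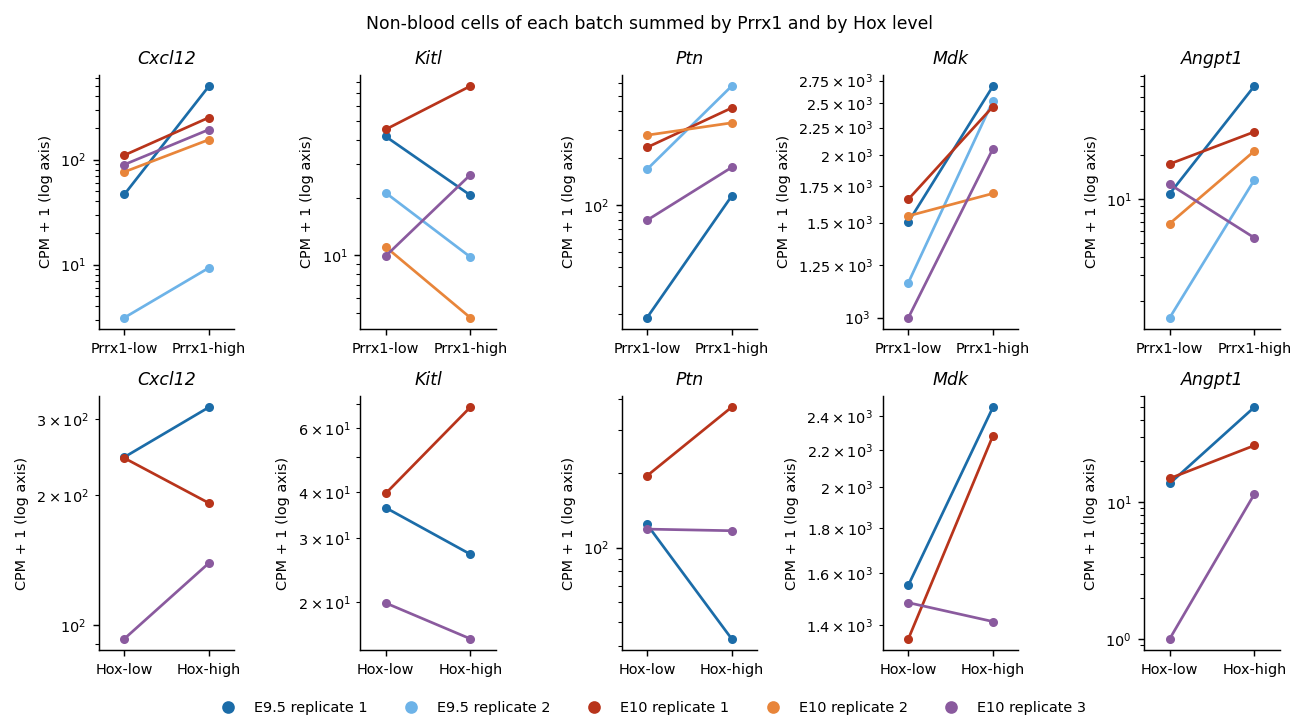
Level of each factor in counts summed per batch, as CPM + 1 on log axes that differ between panels, for Prrx1-low and Prrx1-high cells (top, 5 batches) and Hox-low and Hox-high cells (bottom, 3 batches). Each line joins the 2 sums of a batch. Cxcl12, Ptn and Mdk are higher in Prrx1-high cells in 5 of 5 batches, and with Hox level only Angpt1 moves the same way in 3 of 3.

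Taking both axes, cells high in Prrx1 and in Hox were the largest group, with 117 cells and 2.97 factors per cell. The 11 cells high in Prrx1 and low in Hox held 3.36 factors, with Cxcl12 at 392 CPM against 206 CPM in the 117. Cells low in Prrx1 held 2.22 factors with high Hox (86 cells, 35 neural-like) and 2.20 with low Hox (20 cells, 7 neural-like). Mean Kitl was highest in the cells low in both, at 67.4 CPM, but their median of 2.68 CPM lay below those of the Prrx1-high groups, at 4.21 and 4.20 CPM. The groups of 11 and 20 cells were spread over 3 and 5 batches, and no test was made on them.

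Between stages no factor passed the test. The E10 and E9.5 sums of all 5 overlapped, and edgeR's quasi-likelihood test called 0 of the 5 and 0% of the 13630 genes tested, with 1498 genes at an unadjusted p under 0.05 and 364 called by DESeq2. Cxcl12 was at 294 and 5.44 CPM in the E9.5 sums and 198, 102 and 130 CPM in the E10 sums. The 2 batches of E9.5 lay on either side of all 3 of E10 (log2 difference, E10 over E9.5, -0.18, SE 1.07, edgeR adjusted p = 0.969). Ptn was at 69.5 and 386 CPM and then 347, 297 and 116 CPM (0.04, SE 0.70, edgeR adjusted p = 0.989), in the opposite order at E9.5 to Cxcl12. Mdk was at 2147 and 1887 CPM and then 2158, 1595 and 1424 CPM (-0.34, SE 0.21, edgeR adjusted p = 0.566).

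Kitl was at 29.2 and 14.1 CPM at E9.5 and 63.8, 7.91 and 15.5 CPM at E10 (log2 difference 0.27, SE 0.81, edgeR adjusted p = 0.930). Angpt1 was at 36.4 and 6.92 CPM and then 23.6, 10.7 and 8.71 CPM (-0.72, SE 0.73, edgeR adjusted p = 0.748). For both, E10 replicate 1 was the highest E10 batch. Without E9.5 replicate 1 the log2 difference of Cxcl12 was 4.57, and without E9.5 replicate 2 it was -1.14. Without E9.5 replicate 2, 5 genes of all were called, all lower at E10, and without E10 replicate 2 none was. Each batch holds 1 stage, so stage and batch cannot be told apart beyond the replicates.

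**Figure D4:**
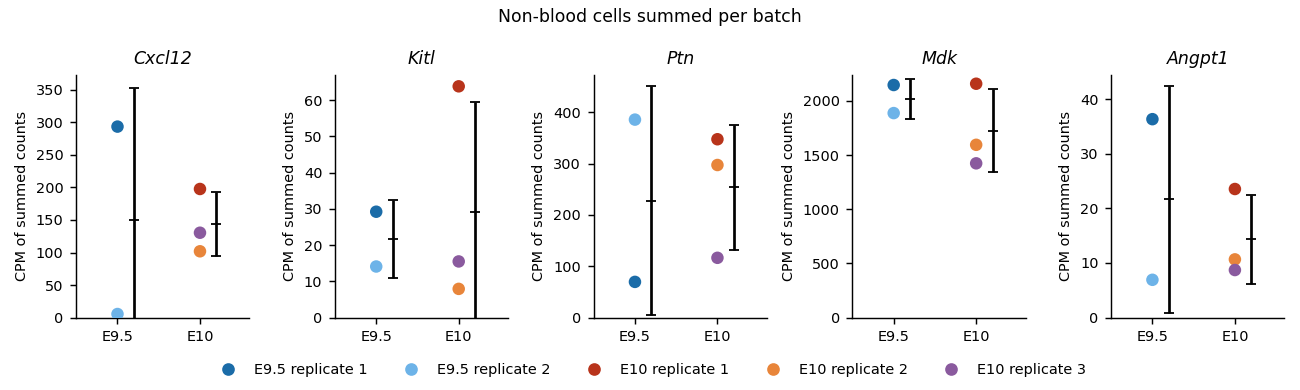
CPM of counts summed over non-blood cells, 1 point per batch, with the mean and SD of each stage (n = 2 and n = 3) beside the points and the bars ending at 0 where they would pass it. The stages overlap for all 5 factors, and the 2 batches of E9.5 lie far apart for Cxcl12 (294 and 5.44 CPM) and Ptn (69.5 and 386 CPM).

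The thinned share of non-blood cells with Cxcl12 was 48.7% ± 55.6 (SD, n = 2) at E9.5 and 58.6% ± 13.9 (n = 3) at E10. By a two-sided exact permutation over 10 splits of the batches, which cannot go below 0.1, p was 0.8 (adjusted over the 5 factors, 1). Kitl was detected in 28.0% and 9.38% of cells in the E9.5 batches and in 47.7%, 9.52% and 18.4% in the E10 batches (exact permutation p = 0.8). The shares were 61.1% ± 24.1 and 62.1% ± 16.9 for Ptn (exact permutation p = 1), and 22.2% ± 13.8 and 16.2% ± 5.20 for Angpt1 (exact permutation p = 0.6). Mdk was at 100% in both E9.5 batches and at 98.9% ± 1.02 at E10 (exact permutation p = 0.4). The mean number of factors per cell was 2.92 and 2.09 in the E9.5 batches and 3.07, 2.62 and 2.14 in the E10 batches, so both stages held a high and a low batch (2.51 ± 0.58 against 2.61 ± 0.46, exact permutation p = 0.7).

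Of 18 receptors and partners of the factors, 13 were tested between blood and non-blood cells, and 2 were higher in blood and 8 lower, where 16.2% of all genes were called in each direction. The share higher, 2 of 13, is near that of all genes. Kit, the Kitl receptor, was called higher (log2 difference 1.70, SE 0.48, edgeR adjusted p = 0.0106), in 2 of 3 batches by CPM, with 20.1 CPM in blood and 24.7 CPM in non-blood cells in E9.5 replicate 2. Its mean was 82.7 CPM in progenitor-like cells, where all 15 had a UMI, and 2.26 CPM in erythroid-like cells. Ncl, a nucleolar protein that binds Ptn and Mdk, was higher in 3 of 3 batches (1.38, SE 0.27, edgeR adjusted p = 0.000544). Lower in blood were the Ptn and Mdk partners Ptprz1 (194 UMIs in non-blood and 1 in blood sums, edgeR adjusted p = 0.00955), Sdc4 (-3.75, SE 1.13), Nrp1 (-3.75, SE 0.42), Sdc3 (-3.04, SE 0.65) and Lrp1 (-2.70, SE 0.62). Without E10 replicate 2, Sdc4 was not called (edgeR adjusted p = 0.153) and the other genes named here as called still were. The Cxcl12 receptor Cxcr4 had 0 UMIs in all 60 blood cells, and means of 0.57 and 1.35 CPM in neural-like and other non-blood cells. Ackr3, which binds and clears Cxcl12, was at 15.4 CPM in non-blood cells outside the neural clusters, 18.7 CPM in neural-like and 5.64 CPM in erythroid-like cells. Tek, the Angpt1 receptor, was at 5.50 CPM in non-blood cells outside the neural clusters and at 0.34 to 1.59 CPM in the other classes.

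Neural-like cells were higher in Nrp1 (1.66, SE 0.38, edgeR adjusted p = 0.0113) and Sdc3 (1.25, SE 0.36, edgeR adjusted p = 0.0473), 2 of 14 receptors tested, with none lower, where 3.09% of all genes were called higher. Sdc3 was not called without E10 replicate 2 (edgeR adjusted p = 0.0558). Ptprz1 averaged 28.4 CPM in neural-like cells (batch means 0 to 56.5 CPM) against 1.23 CPM in the other non-blood cells, and did not pass (edgeR adjusted p = 0.0661). Alk had 79 UMIs in neural-like cells, in 7.14% of them, and was not tested. Prrx1-high cells were higher in Sdc1 (1.31, SE 0.30, edgeR adjusted p = 0.0379) and lower in Tek (-4.84, SE 0.85, edgeR adjusted p = 0.00641), also 2 of 14 tested, where 0.839% of all genes were called higher and 1.03% lower. Without neural-like cells Tek was called (edgeR adjusted p = 0.0268) and Sdc1 was not (0.155). With E10 replicate 2 left out, Sdc1 was not called (edgeR adjusted p = 0.0578) and Tek did not pass the filter. Of the Tek molecules, 273 of 377 in Prrx1-low cells came from E9.5 replicate 1. No receptor was called by Hox level or between stages, of 14 and 15 tested.

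Of 44 other factors known to act on blood cells, 6 had 0 UMIs in non-blood cells, among them Epo, Il3 and Il6, and 18 averaged under 1 CPM. Of the 44, 7 averaged 50 CPM or more, and 3 of the 5 factors followed here did. The factors and the list were chosen with earlier results of these data known, so these counts are not a test. Of the 25 tested between blood and non-blood cells, 13 were lower in blood, where 16.2% of all genes were called lower. They were led by Rspo3 (-4.26, SE 1.36, edgeR adjusted p = 0.0209), Igfbp3 (-3.89, SE 0.67), Dll1 (-3.85, SE 0.95), Hgf (-3.83, SE 1.38) and Tgfb2 (-3.75, SE 0.59). The 2 higher in blood were Flt3l, a cytokine of early progenitors (5.35, SE 0.76, edgeR adjusted p = 2.45e-05), and Tgfb1 (2 UMIs in non-blood and 70 in blood sums, edgeR adjusted p = 0.0197). Hgf was not called without E10 replicate 2 (edgeR adjusted p = 0.202), Tgfb1 did not pass the filter, and the other 5 named here were called. Prrx1-high cells were higher in Wnt5a (1.76, SE 0.34, edgeR adjusted p = 0.0123) and Rspo3 (2.70, SE 0.59, edgeR adjusted p = 0.0259) and lower in the Notch ligand Dll1 (-3.72, SE 0.77, edgeR adjusted p = 0.0192), of 27 tested, where 1.87% of all genes were called. Without neural-like cells none of these 3 was called (edgeR adjusted p = 0.141 for Wnt5a, 0.681 for Rspo3 and 0.929 for Dll1). Neural-like cells were higher in Dll1 (3.26, SE 0.85, edgeR adjusted p = 0.0285) and Igfbp3 (1.86, SE 0.45, edgeR adjusted p = 0.0171) and lower in 8 of 25, where 3.09% of all genes were called higher and 2.44% lower. Among the 8 were Npnt (629 UMIs in the other cells and 3 in neural-like cells), Rspo3 (-5.68, SE 0.98), Vcam1 (-4.49, SE 1.00), Bmp4 (-4.22, SE 0.79) and Igf1 (-4.18, SE 0.48), while Hgf, with 443 UMIs in the other cells and 0 in neural-like cells, is given no fold. Without E10 replicate 2, Dll1 (edgeR adjusted p = 0.0696), Igfbp3 (0.0655), Npnt (0.0776) and Hgf (0.152) were not called in neural-like cells.

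The genes most like each factor over the 234 non-blood cells were ranked by Pearson's r of log2(CPM + 10) among 9815 genes with a UMI in at least 25% of the cells, as a description of cells that share batch and depth. For Cxcl12 these were the forkhead factors Foxc1 (r = 0.61, batch range 0.46 to 0.72) and Foxd1 (0.57, 0.34 to 0.83), then Col9a1, Nr2f1 and Tgfbi. For Mdk they were Gpc3, a glypican (0.70, batch range 0.39 to 0.86), then H2afv, Igfbp4, Tead2 and Hmga2. Ptn went with Twist1, a mesenchymal regulator (0.50, batch range 0.11 to 0.77), and with Lix1, Ank3, Irx3 and Gpc3. Kitl went with Nr2f1 (0.45, batch range 0.21 to 0.44), Wt1, Sox9, Ptgfrn and Nr2f2. Angpt1 had the weakest, with Cd248, a pericyte and stromal protein, at 0.41 (0.085 to 0.53), then Plat, Inadl, Foxd1 and Tgfbi. The median r over all genes was near 0 for each factor, at 0.0020 to 0.012. Cxcl12 and Kitl shared Nr2f1, Cxcl12 and Angpt1 shared Foxd1 and Tgfbi, and Ptn and Mdk shared Gpc3 in these lists. Several of these relations were below 0 in a batch, with lowest values of -0.041 for Cxcl12 with Tgfbi, -0.019 for Cxcl12 with Col9a1, -0.25 for Kitl with Wt1, -0.24 for Ptn with Ank3, -0.13 for Mdk with Hmga2, -0.0064 for Mdk with Tead2 and -0.15 for Angpt1 with Inadl.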

How the data were processed

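Single cells were profiled by a modified STRT-seq protocol with poly(A) priming and UMIs. The authors deposited whole-number UMI counts per gene and cell, made per the submitters' processing notes with CASAVA 1.8, TopHat2 2.0.12 and HTSeq (version not given) on mm10. No strand setting is recorded. The table held 24411 genes, 95 spike-in rows (dropped) and 480 columns, of which 111 held 0 UMIs. Each column was assigned to a batch by the batch number in its name. A file of cell barcodes held no measurement and was set aside.

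Cells with at least 1000 genes and 30000 UMIs were clustered in scanpy 1.11.5 by leidenalg 0.10.2 (2000 variable genes, 20 components, 15 neighbours, resolution 1.0, seed 0, no batch integration). Names needed 3 or more markers from 1 list, each with a cluster median of 20 CPM or more and a mean 2 times that of the other cells. No doublet caller was run, since cells were picked by hand. Names are rebuilt and may differ from those of the study. Class tests compare groups formed on the same cells, with the tested lists left out of clustering. Counts were summed per batch and class (at least 5 cells, 3 for neural-like) and tested in edgeR 4.0.16 under R 4.3.3, with TMM, filterByExpr, the quasi-likelihood test and Benjamini-Hochberg adjustment at 0.05 over all genes. Batch was a block in class comparisons because the classes of a batch were collected together. The standard error is the log2 difference divided by the square root of F. CPM of sums uses unscaled totals. The test was tried on simulated data. DESeq2 1.42.0 gave an alternative. Equal weight per cell was a fit in limma 3.58.1 on the log2 of mean CPM + 1 per batch and class. Further alternatives were other size factors, filters, depth limits, cluster resolutions, limits of Prrx1 and Hox level, and each batch left out in turn.

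The members and the gene lists were chosen with earlier results of these data known. Named genes are the 5 members, at most 5 per direction from each list among those called whose mean count reached 10, and the 5 genes most correlated with each member. Cxcr4, Ackr3, Alk, Epo, Il3 and Il6 fall outside that rule and were chosen after their values were seen.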

Additional observations from a re-analysis of the deposited data

Results flagged for a closer look

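The difference in Kitl between neural-like and other non-blood cells is listed because its direction differed between stages. The interaction of class and stage in edgeR, chosen after the data were seen, gave a log2 value of -3.17 for E10 minus E9.5, with an unadjusted p of 0.0118 and an edgeR adjusted p of 1 over 12961 genes. Interactions of Prrx1 level with stage kept their direction at both stages, at -1.98 for Cxcl12 (unadjusted p of 0.00067) and -1.46 for Ptn (0.0017), with an edgeR adjusted p of 1 for each. Kitl in neural-like cells was at 108 CPM in E9.5 replicate 1 (3 cells) and 14.4 CPM in E9.5 replicate 2, and at 30.3, 0.69 and 7.08 CPM in E10 replicates 1, 2 and 3. The other non-blood cells were at 17.6 and 13.9 CPM at E9.5 and at 66.5, 8.90 and 21.9 CPM at E10. The neural-like sum was the higher one in 2 of 2 batches at E9.5 and the lower one in 3 of 3 at E10. Neural-like clusters 4 and 8 take different shares of the class in each batch, and their part in the result was not tested.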

How the results depend on the processing

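Of 582 values recomputed under an alternative, 500 were counted as the same, 18 lost a call, 2 gained one, 26 moved and 36 reversed. The cause of each was not tested. For a log2 difference, the same meant its direction and side of the threshold. For a count of genes it meant a change within a set fold limit, and for a share or number of factors the same direction. Other cluster resolutions and leaving out repeated wells gave the main fit in every comparison, so their values are no separate check. At the lower limit on UMIs per cell, 23 wells were flagged as repeats. Their part in the values of that alternative was not tested. The calls of Ptn and Mdk against blood held in all 15 alternatives, but cluster resolution, Dppa5a cells, repeated wells, E9.5 replicate 1 and E10 replicate 1 left that fit as it was, and setting blood cells per cell gave the same fit as leaving out E10 replicate 2. The number of genes called moved as follows. Between stages DESeq2 called 364. For neural-like cells DESeq2 called 1355, and 418 were called with no replicate block. By Prrx1 level, 585 were called with no filter on low counts, 630 by DESeq2, 83 with no replicate block and 13 without neural-like cells. By Hox level, 46 were called with no filter, 33 by DESeq2, 4 with equal weight per cell, 0 with no replicate block, 1 without cells that express Dppa5a, 5 at a limit of 1000 CPM and 46 without neural-like cells. Reversals were of log2 differences and shares that did not pass the test. Between stages they were Cxcl12 (1.41) and Kitl (-0.031) with equal weight per cell and Ptn (-0.17) with blood cells set per cell, which removes nearly all non-blood cells of E10 replicate 2. Kitl reversed in neural-like cells with no replicate block (0.33), and by Prrx1 level with no replicate block (0.049), with blood cells set per cell (0.053), at 300 CPM (0.38) and without neural-like cells (0.092). By Hox level they were Cxcl12 without neural-like cells (-0.10), Kitl with no replicate block (0.12) and without neural-like cells (0.39), and Ptn with no replicate block (0.16) and at 1000 CPM (0.13). The stage difference in the share of cells with Ptn was -6.63 points without thinning.

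Leaving out 1 batch at a time gave 0 to 5 genes called between stages, 2342 to 4471 against blood, 371 to 731 for neural-like cells, 122 to 303 by Prrx1 level and 1 to 20 by Hox level. Log2 differences between stages ran from -1.14 to 4.57 for Cxcl12, -1.001 to 0.87 for Kitl, -0.72 to 1.79 for Ptn and -1.44 to 0.90 for Angpt1. Kitl ran from -0.67 to 0.053 by Prrx1 level. By Hox level the ranges were -0.066 to 0.44 for Cxcl12, -0.44 to 0.15 for Kitl and -0.83 to 0.36 for Ptn. Shares of cells, E10 minus E9.5, ran from -29.4 to 49.2 points for Cxcl12, -4.74 to 15.8 for Kitl, -16.0 to 18.1 for Ptn and -15.8 to 3.71 for Angpt1, and the number of factors per cell from -0.31 to 0.52. A Hox limit of 100 CPM was not run, since too few cells lay below it. No paired analysis was possible because, for the stages, each batch holds 1 stage and replicate numbers follow accession order. Depth limits Kitl and Angpt1 most, with 27 and 15 UMIs in the blood sums.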
